A study of Homo sapiens with 9 samples.

Results

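The cell cycle and DNA replication genes described here are 54 named genes, taken from the deposited expression table by their symbols. All 54 were among its 34643 genes. By role they comprise 29 genes of the G1/S transition and of DNA replication, 19 genes of the G2/M transition and mitosis, and 6 inhibitors, which are 4 cyclin-dependent kinase (CDK) inhibitors and 2 pocket proteins. Poly(A) RNA was sequenced from THP-1, an established human line grown from an acute monocytic leukaemia. All 9 libraries came from wild-type cells that had been given the phorbol ester PMA, which pushes this line towards a macrophage state, at 500 nM for 4 h and then rested for 24 h. The groups of 3 were a control with neither agent (replicates 1 to 3), 1 µg/mL LPS (replicates 4 to 6), and 10 µM PD given with that LPS dose (replicates 7 to 9). LPS, lipopolysaccharide of Gram-negative bacteria, is a macrophage activator, and the series title gives PD as panaxadiol, a plant triterpenoid. No group had PD without LPS, and the length of the LPS and PD exposure is not given in the sources used here.

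A cell enters S phase when cyclin D with CDK4 or CDK6, and then cyclin E with CDK2, phosphorylate the retinoblastoma protein and release E2F factors, which switch on genes for origin licensing and DNA synthesis. Later the genes for mitosis are switched on, and their promoters carry a different element, the cell cycle genes homology region (CHR). CDK inhibitors and pocket proteins hold this sequence back, and macrophage differentiation of monocytic cells is known for an exit from the cycle in which CDKN1A takes part.

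Promoters of 5 members are shown because the windows of replication genes and of mitotic genes held these elements in different shares. RefSeq windows (GRCh38.p14, 250 bases before to 50 bases after a start) were found for 44 of the 54 members. CCND2, CCNE2, CDK2, MCM4, MCM5, E2F8, AURKA, BIRC5, FOXM1 and TTK were not among them. The E2F letters searched on both strands were TTTCCCGC, TTTGGCGC, TTTCGCGC and TTTGCCGC, and matches to them can overlap one another. They occurred in a window of 13 of 23 G1/S genes and 2 of 15 G2/M genes, against 3.99% of all 27305 genes with a window and 3.31% of all windows. The CHR letters TTTGAA occurred in 10 of 15 G2/M genes and 1 of 23 G1/S genes, against 18.2% of all genes and 15.2% of all windows. Of the 6 inhibitors RBL1 alone had the E2F letters and 0 had the CHR letters. A match is a description of the letters and does not show that a factor binds there. Each sequence runs 5′ to 3′ on the strand of its gene, and capitals mark the E2F letters in the first 3 and the CHR letters in the other two.
MCM6 (chr2:135876394-135876693, minus strand): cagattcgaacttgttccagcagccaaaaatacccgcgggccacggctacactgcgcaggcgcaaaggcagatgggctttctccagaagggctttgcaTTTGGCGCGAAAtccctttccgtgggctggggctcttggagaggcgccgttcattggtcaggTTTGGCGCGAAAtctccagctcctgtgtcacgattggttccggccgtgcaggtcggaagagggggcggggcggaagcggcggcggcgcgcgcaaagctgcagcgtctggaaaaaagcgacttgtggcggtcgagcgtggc
PCNA (chr20:5126573-5126872, minus strand): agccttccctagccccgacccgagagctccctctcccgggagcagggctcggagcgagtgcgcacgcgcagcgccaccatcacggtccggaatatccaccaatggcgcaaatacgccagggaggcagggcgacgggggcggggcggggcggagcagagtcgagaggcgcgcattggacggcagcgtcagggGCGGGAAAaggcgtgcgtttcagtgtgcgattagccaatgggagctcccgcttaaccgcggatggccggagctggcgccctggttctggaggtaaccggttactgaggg
E2F1 (chr20:33686336-33686635, minus strand): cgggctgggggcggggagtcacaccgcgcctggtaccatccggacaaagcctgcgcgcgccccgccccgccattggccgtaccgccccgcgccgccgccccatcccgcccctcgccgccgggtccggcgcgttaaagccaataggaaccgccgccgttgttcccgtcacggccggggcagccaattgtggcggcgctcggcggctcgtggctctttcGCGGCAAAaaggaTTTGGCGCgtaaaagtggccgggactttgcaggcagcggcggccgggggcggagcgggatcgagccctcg
CCNB2 (chr15:59104896-59105195, plus strand): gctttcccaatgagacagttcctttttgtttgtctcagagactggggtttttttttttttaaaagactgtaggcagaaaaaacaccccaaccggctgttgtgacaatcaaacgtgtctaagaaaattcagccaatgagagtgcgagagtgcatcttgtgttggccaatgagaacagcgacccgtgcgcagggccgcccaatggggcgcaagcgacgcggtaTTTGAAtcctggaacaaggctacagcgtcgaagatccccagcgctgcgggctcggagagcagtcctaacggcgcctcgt
TOP2A (chr17:40417847-40418146, minus strand): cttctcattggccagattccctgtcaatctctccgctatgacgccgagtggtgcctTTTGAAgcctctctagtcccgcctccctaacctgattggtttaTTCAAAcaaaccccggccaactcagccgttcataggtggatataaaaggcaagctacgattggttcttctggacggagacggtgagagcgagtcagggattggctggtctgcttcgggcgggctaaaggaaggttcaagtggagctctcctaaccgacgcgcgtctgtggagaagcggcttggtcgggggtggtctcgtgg

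Levels are the authors' FPKM, which are fragments scaled to gene length and to the library total. The length that fitted the values was the total of all annotated exons, so differences in level between genes depend on the annotation. The values implied 15641358 to 17875224 fragments per library. Replicates of a group correlated at 0.989 to 0.991 across genes (log2 scale) and differed by more than sampling noise, so all 9 were kept. Nothing in the labels says that replicates were separate cultures, so the p-values rest on library-to-library spread that may be technical. Of 10 monocyte or macrophage markers 9 reached 1 FPKM, with SPI1 at 134.9 FPKM in control, whereas 1 of 10 epithelial markers did (MUC1) and EPCAM, KRT8 and KRT18 stayed below 1 FPKM in the group means. The summed monocyte or macrophage markers were 409 to 422 FPKM in control, 611 to 624 with LPS and 638 to 662 with LPS+PD, but the list was mixed: SPI1, CSF1R and CD14 were higher with LPS, and CSF3R, MPO, CD33 and LYZ were lower on average. From LPS to LPS+PD the mean of LYZ rose from 157.8 to 301.1 FPKM, and ITGAM, CSF3R, CD33 and MPO were also higher. SPI1 (265.8 to 219.3 FPKM), CSF1R (78.6 to 41.3), CD14 (35.1 to 10.1) and FCGR1A (49.7 to 30.8) were lower. CD68, the marker below 1 FPKM in all libraries, averaged 0.128, 0.237 and 0.216 FPKM in control, LPS and LPS+PD. The T cell, B cell and fibroblast or endothelial lists each had 3 genes at 1 FPKM in some library. Their sums were 49.95 to 53.7, 3.98 to 4.29 and 34.6 to 35.6 FPKM in control, and 84.2 to 86.7, 5.72 to 6.56 and 56.5 to 58.9 FPKM with LPS. With LPS+PD they were 74.7 to 74.9, 4.25 to 5.25 and 48.5 to 49.04 FPKM. CD4 and PECAM1, which monocytic cells also express, and IL7R (0.468 to 22.2 FPKM with LPS) made up most of the T cell and endothelial sums, while CD3G was 0 in all libraries and CD3E, CD8A, MS4A1 and COL1A2 stayed below 0.1 FPKM in the group means. The part of these shifts in the cell cycle results was not tested. Strand use is not stated, and 16 members share exonic bases with a gene on the opposite strand, among them CDKN1A, TYMS, CDK2, CDK4, E2F8 and PLK1. FEN1, RRM2 and BUB1B share them with a gene on the same strand. Levels of these genes are uncertain to that extent. Of 5 members with pseudogene copies in the table, only CDC20 had a copy above 1 FPKM (CDC20P1, at most 4.07 FPKM).

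All but 1 of the members were well expressed in control. CDC20, an activator of the anaphase-promoting complex, was the highest at 323 ± 12.6 FPKM (SD, n = 3), followed by MCM3 at 144 and CDKN2C at 119, and the lowest of the 53 genes that could be tested was E2F2 at 5.30. The cyclin D gene CCND2 was the exception, at 0.0793, 0.107 and 0.0695 FPKM in control, 0.00791, 0.0428 and 0 FPKM with LPS and 0, 0.00823 and 0.0706 FPKM with LPS+PD. That corresponds to at most 12 fragments in any library, and CCND2 did not pass the filter of 1 FPKM in 3 libraries. The proliferation marker MKI67 stood at 38.7 FPKM, TOP2A at 94.7 and PCNA at 87.1 in the PMA-primed control cells.

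LPS lowered most of the mitotic genes and many of the replication genes, by modest amounts, and raised MCM10, CDC6, CDC45, RRM2, E2F1, CCND3 and CCNE1. Of the 28 G1/S genes tested 16 fell and 7 rose, and of the 19 G2/M genes 16 fell and 0 rose, at an adjusted p below 0.05 (limma on log2(FPKM + 1), Benjamini-Hochberg over 13692 genes). These counts are to be read beside a background in which LPS moved most genes, with 66.2% of all genes tested called, 39.7% lower and 26.4% higher. The median log2 fold change was -0.20 for G1/S genes and -0.32 for G2/M genes, against -0.08 for all genes tested. Groups did not overlap, lower with LPS, in 34 of 53 members, and higher in 10, where all genes gave 69.8% in either direction, 41.8% lower and 28.0% higher. The lowest value among the G2/M genes was -0.62 and the highest 0.06, whereas G1/S genes ran from -0.63 to 0.75. In bulk RNA a lower level in each cell and fewer cells that express the gene cannot be told apart. The split over all genes depends on the scaling between libraries, with 3621 genes higher and 5438 lower as deposited but 4528 and 4418 after median-of-ratios scaling. Under that scaling, which moved the median of all genes by 0.08, 15 G1/S genes fell and 9 rose, and 15 G2/M genes fell and 2 rose (CDK1 and MKI67).

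With PD added to LPS, a majority of the members of both classes were called higher than with LPS alone. In G2/M genes that majority depended on the settings given below. Whether the classes differed was not tested. Compared with LPS alone 19 of 28 G1/S genes were higher and 2 lower, and 11 of 19 G2/M genes were higher and 0 lower. Of all genes tested 36.8% were called, 23.8% higher and 13.0% lower. The median log2 fold change was 0.22 for G1/S genes and 0.13 for G2/M genes, against 0.07 for all genes. The groups did not overlap in 37 members that were higher and 5 that were lower, against 50.4% of all genes in either direction, 32.8% higher and 17.6% lower. Median-of-ratios scaling gave 2058 genes higher and 2508 lower in place of 3259 and 1778, and it left 15 G1/S genes higher with 2 lower, and 5 G2/M genes higher (PLK1, CDC20, BUB1B, TOP2A and NUSAP1) with CENPE lower. Leaving out replicate 6, an LPS library, took the G2/M count from 11 to 7.

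Set against control, replication genes with LPS+PD went both ways, with RRM2, CDC45 and MCM3 above control and CDT1 below it, and 10 of the 19 mitotic genes were below control. Of 28 G1/S genes 11 were higher and 4 lower, and of 19 G2/M genes 1 was higher and 10 lower. Of all genes 54.7% were called in this comparison, 26.0% higher and 28.7% lower. The median log2 fold change was 0.04 for G1/S genes, over values from -0.37 to 0.64, and -0.14 for G2/M genes, against -0.02 for all genes. The groups did not overlap in 16 members that were higher and 18 that were lower, against 61.6% of all genes in either direction, 29.0% higher and 32.6% lower. The 3 comparisons share libraries, so their values are given side by side and not as support for one another.

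**Figure D1:**
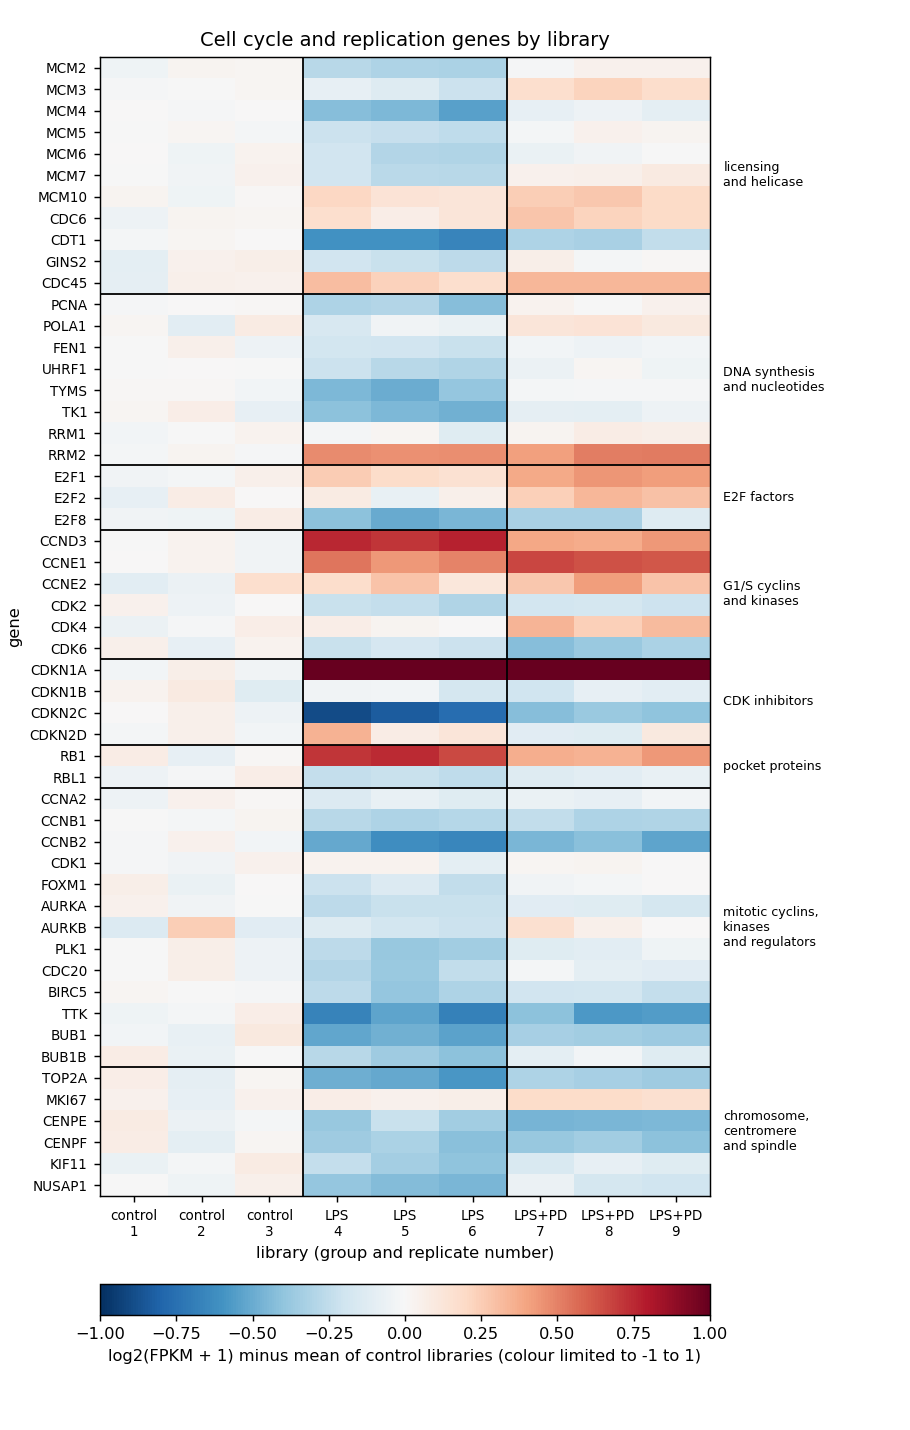
Level of each of the 53 tested genes (rows, by role) in each of the 9 libraries (columns), as log2(FPKM + 1) minus the mean of the control libraries, with colour limited to -1 to 1. MCM2, TYMS and PCNA are blue with LPS and near white with LPS+PD, CCNB2, TTK and CDT1 are blue in both, and CDKN1A, CCND3, RRM2 and CDC45 are red in both.

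**Figure D2:**
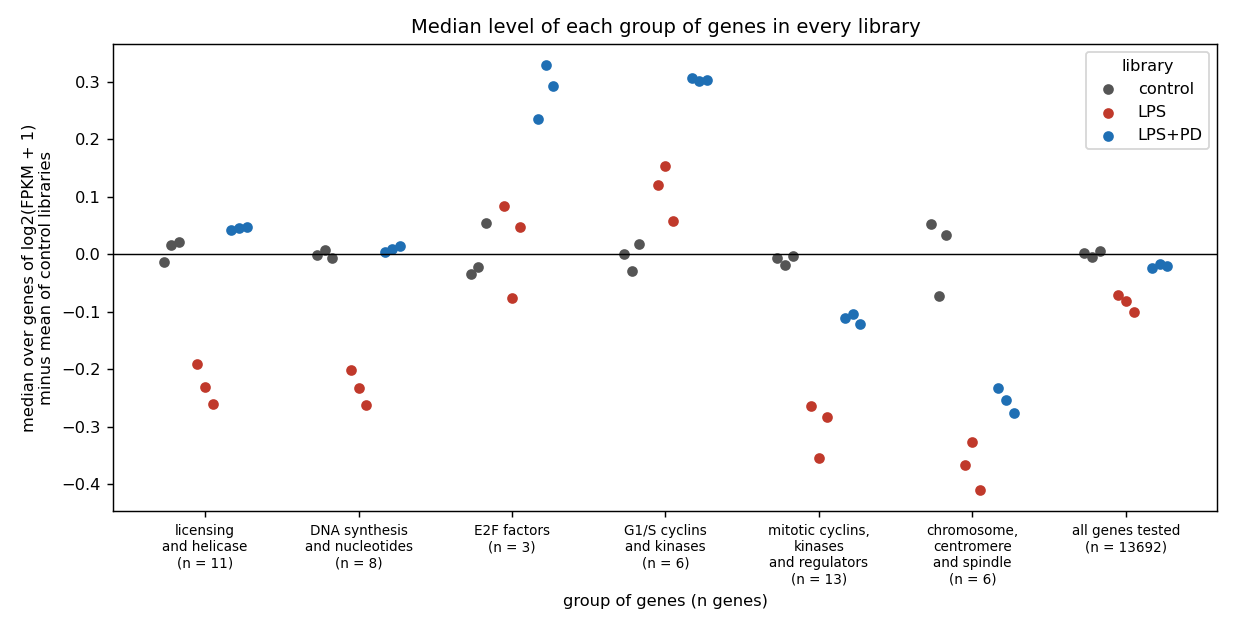
Median over the genes of a role of log2(FPKM + 1) minus the control mean, 1 point per library, with all 13692 tested genes on the right. Licensing genes lie at -0.26 to -0.19 in the LPS libraries and at 0.04 to 0.05 in the LPS+PD libraries, whereas mitotic cyclins, kinases and regulators lie at -0.35 to -0.26 and at -0.12 to -0.10.

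Among the genes for origin licensing and the replicative helicase, the MCM2 to MCM7 subunits, which form 1 ring around DNA, all fell with LPS as deposited, and all but MCM3 did so with median-of-ratios scaling. Their summed level was 525 to 537 FPKM in control libraries, 425 to 456 FPKM with LPS and 540.4 to 555 FPKM with LPS+PD. The LPS libraries lay below all others in each of the 6 subunits. On the FPKM scale MCM3 was the highest subunit and MCM5 the lowest in every library, with a ratio between them of 3.54 to 4.12. That order depends on the exon lengths used, 3650 bases for MCM3 and 7338 bases for MCM5. In fragments recovered for control replicate 1, MCM4 was highest (12120) and MCM6 lowest (4954), with MCM3 at 9173 and MCM5 at 5129.

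MCM4 changed most of the ring subunits. It stood at 98.7, 97.1 and 98.6 FPKM in control libraries, 72.9, 71.7 and 67.0 FPKM with LPS and 92.6, 94.4 and 91.5 FPKM with LPS+PD. All LPS libraries were below all others, and the LPS+PD libraries lay just below control. The log2 fold change was -0.47 (SE 0.03, adjusted p = 1.15e-06) for LPS against control and 0.39 (adjusted p = 2.20e-05) for LPS+PD against LPS. Against control LPS+PD was at -0.08 (95% interval -0.15 to -0.00, adjusted p = 0.0686, and 0.0226 by voom on recovered fragments).

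MCM2 was at 71.2, 74.9 and 74.4 FPKM in control, 60.4, 59.0 and 58.9 FPKM with LPS and 72.8, 75.8 and 75.9 FPKM with LPS+PD. Control and LPS+PD libraries overlapped, and the LPS libraries were apart from both. Its log2 fold changes were -0.30 for LPS against control (adjusted p = 1.23e-05), 0.33 for LPS+PD against LPS (adjusted p = 3.18e-05) and 0.03 for LPS+PD against control (95% interval -0.04 to 0.09). MCM5, MCM6 and MCM7 were also lowest with LPS, with log2 fold changes of -0.23 to -0.26 with LPS and 0.23 to 0.31 for LPS+PD against LPS. Against control LPS+PD was not called in these 3 genes, although its MCM7 libraries (108.6 to 112.1 FPKM) all lay above control (102.7 to 108.4 FPKM) and median-of-ratios scaling called MCM7 higher (adjusted p = 0.0251). MCM3 fell least with LPS, by 0.14 (adjusted p = 0.0053; -0.04 and adjusted p = 0.284 with median-of-ratios scaling), and with LPS+PD it was above control, at 162 to 168 FPKM against 143 to 146 FPKM (log2 fold change 0.19, adjusted p = 0.00124).

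CDT1, which loads the MCM ring onto origins, fell most in this role. It stood at 44.6, 45.7 and 45.2 FPKM in control, 29.4, 29.3 and 28.2 FPKM with LPS and 36.3, 35.9 and 38.0 FPKM with LPS+PD. The 3 groups did not overlap, and LPS+PD lay between the other two. LPS against control gave a log2 fold change of -0.63 (adjusted p = 8.61e-08), LPS+PD against LPS one of 0.33 (adjusted p = 3.69e-05) and LPS+PD against control one of -0.29 (adjusted p = 3.28e-05). GINS2, a subunit of the GINS complex of the active helicase, fell with LPS (log2 fold change -0.22) and rose with LPS+PD against LPS (0.24), ending within 0.02 of control.

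MCM10, CDC6 and CDC45 went the other way. CDC45, the helicase partner of the MCM ring and GINS, was at 19.1 to 21.2 FPKM in control, 23.1 to 25.7 FPKM with LPS and 26.0 FPKM in all 3 LPS+PD libraries. MCM10, which helps start the helicase, was at 12.0 to 12.6, 13.5 to 14.4 and 14.3 to 15.1 FPKM in the same order. CDC6, the partner of CDT1 in loading, was at 16.6 to 17.7, 18.2 to 19.5 and 19.9 to 21.2 FPKM. All 3 genes rose with LPS (log2 fold changes 0.12 to 0.24), although the call for CDC6 was lost without replicate 1, 4 or 6 (adjusted p = 0.0577 to 0.091). For LPS+PD against LPS none of them was called (adjusted p = 0.0506 to 0.155), although CDC6 was called higher with a filter at FPKM 5 (adjusted p = 0.039), by voom (0.0331) and without replicate 1 or 4 (0.0482 and 0.0373). Against control all were higher with LPS+PD (0.23 to 0.33).

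For DNA synthesis and nucleotide supply, LPS lowered 5 of 8 genes and raised 1, where 39.7% of all genes fell and 26.4% rose. TYMS, thymidylate synthase, was at 52.8, 52.8 and 51.4 FPKM in control, 38.0, 36.7 and 39.8 FPKM with LPS and 51.6, 51.9 and 51.8 FPKM with LPS+PD. The LPS libraries were all lower, and those with PD lay inside the control range. Its log2 fold change was -0.45 with LPS (adjusted p = 1.24e-06), 0.43 for LPS+PD against LPS (adjusted p = 9.52e-06) and -0.01 for LPS+PD against control (95% interval -0.09 to 0.06).

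PCNA, the sliding clamp of DNA polymerases, had 86.5, 87.1 and 87.8 FPKM in control, 70.0, 70.9 and 64.6 FPKM with LPS and 89.4, 87.0 and 89.8 FPKM with LPS+PD. Only the LPS libraries stood apart. The log2 fold changes were -0.34 (adjusted p = 1.81e-05) and 0.37 (adjusted p = 4.66e-05), and LPS+PD differed from control by 0.03 (95% interval -0.05 to 0.11). TK1, thymidine kinase, was at 106.8, 110.3 and 99.6 FPKM in control, 79.2, 77.0 and 75.5 FPKM with LPS and 98.9, 98.6 and 101.7 FPKM with LPS+PD. The LPS libraries were lowest, and control and LPS+PD overlapped. TK1 fell by a log2 fold change of 0.44 with LPS (adjusted p = 5.11e-06) and rose by 0.36 for LPS+PD against LPS (adjusted p = 8.48e-05). The nuclease FEN1 and UHRF1, which recruits maintenance DNA methylation, fell by 0.20 and 0.26 with LPS and rose by 0.17 and 0.24 for LPS+PD against LPS, although with median-of-ratios scaling the rise of FEN1 had an adjusted p of 0.0576. POLA1, the catalytic subunit of DNA polymerase alpha, passed the test only for LPS+PD against LPS (0.21, adjusted p = 0.0169; adjusted p = 0.0832 with median-of-ratios scaling).

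The subunits of ribonucleotide reductase, which makes deoxynucleotides, parted. The small subunit RRM2 was at 13.2, 13.7 and 13.3 FPKM in control, 19.0, 18.7 and 18.9 FPKM with LPS and 18.1, 19.5 and 19.6 FPKM with LPS+PD. Both treated groups were above control and overlapped each other. RRM2 rose with LPS by a log2 fold change of 0.47 (adjusted p = 2.23e-06), and LPS+PD differed from LPS by 0.01 (95% interval -0.07 to 0.09). The large subunit RRM1 was at 49.9 to 52.2, 46.7 to 51.8 and 52.0 to 53.7 FPKM, and none of its 3 comparisons was called.

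The E2F factors differed among themselves. E2F1, an activator of replication genes, was at 35.6, 35.9 and 37.9 FPKM in control, 43.8, 41.4 and 40.6 FPKM with LPS and 47.7, 49.9 and 49.0 FPKM with LPS+PD. The groups did not overlap and the LPS+PD libraries were highest. Its log2 fold changes were 0.20 with LPS (adjusted p = 0.00108), 0.22 for LPS+PD against LPS (adjusted p = 0.00166) and 0.41 for LPS+PD against control (adjusted p = 1.13e-05). E2F1 thus rose with LPS while MCM6 and PCNA, which also hold E2F letters in the windows shown, fell. Of the 13 G1/S genes with these letters, MCM2, MCM3, MCM6, MCM7, CDT1, GINS2, PCNA, TYMS and UHRF1 were called lower with LPS. Over all genes tested 39.7% were lower. A link between the letters and the direction was not tested. CDC6 has them and rose (0.12, a call lost without replicate 1, 4 or 6), and E2F2 and POLA1 have them and were not called.

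E2F2, another activator, was at 4.94, 5.64 and 5.31 FPKM in control, 5.66, 4.96 and 5.502 FPKM with LPS and 6.41, 6.90 and 6.71 FPKM with LPS+PD. Only the LPS+PD libraries stood apart (0.27 against LPS, adjusted p = 0.00642). E2F8, which represses E2F targets, was at 11.53, 11.49 and 12.5 FPKM in control, 8.64, 8.07 and 8.35 FPKM with LPS and 9.23, 9.25 and 10.7 FPKM with LPS+PD. It fell with LPS by 0.46 (adjusted p = 0.000106) and stayed below control with LPS+PD (-0.26, adjusted p = 0.0049). Its rise for LPS+PD against LPS (0.20, adjusted p = 0.0302) lost its call with median-of-ratios scaling (adjusted p = 0.131), without a filter on low values, and without replicate 5, 6 or 9.

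Cyclins and CDKs of G1 did not move as a block. CCND3, the D-type cyclin expressed in these cells among the members, was at 36.2, 37.2 and 35.3 FPKM in control, 61.8, 60.1 and 62.5 FPKM with LPS and 47.7, 47.0 and 49.2 FPKM with LPS+PD. The groups were well apart, with LPS highest. CCND3 rose by a log2 fold change of 0.75 with LPS (adjusted p = 2.37e-08) and fell by 0.35 for LPS+PD against LPS (adjusted p = 2.67e-05).

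CCNE1, cyclin E1, was at 14.6, 14.9 and 14.1 FPKM in control, 21.5, 19.99 and 20.9 FPKM with LPS and 23.7, 23.1 and 22.9 FPKM with LPS+PD. Unlike CCND3 it was highest with LPS+PD. CCNE1 rose by 0.49 with LPS (adjusted p = 1.48e-06) and was 0.64 above control with LPS+PD (adjusted p = 3.98e-07), while the step from LPS to LPS+PD of 0.15 (adjusted p = 0.00801) was 0.08 with median-of-ratios scaling (adjusted p = 0.13). CCNE2, cyclin E2, was at 6.51, 6.73 and 8.05 FPKM in control, 8.12, 8.81 and 7.73 FPKM with LPS and 8.72, 9.81 and 8.86 FPKM with LPS+PD. Control and LPS overlapped, and only LPS+PD against control was called (0.33, adjusted p = 0.00611). Under several other settings CCNE2 was called higher with LPS than in control too. These were median-of-ratios scaling (adjusted p = 0.00862), a filter at FPKM 5 (0.0406), voom (0.0189), and leaving out replicate 3 or 6 (0.00671 and 0.0491).

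The kinases gave 3 different patterns. CDK2, the partner of cyclin E, was at 17.7, 16.6 and 17.2 FPKM in control, 14.6, 14.4 and 13.8 FPKM with LPS and 14.97, 15.1 and 14.7 FPKM with LPS+PD, so that both treated groups lay below control. CDK4 was at 36.4, 37.6 and 39.8 FPKM, then 39.6, 38.6 and 38.0 FPKM, then 48.4, 44.8 and 47.5 FPKM, and only the LPS+PD libraries stood apart. With median-of-ratios scaling CDK4 was also higher with LPS than in control (0.13, adjusted p = 0.0172). CDK6 was at 38.5, 35.2 and 38.1 FPKM, then 31.7, 33.0 and 32.0 FPKM, then 27.5, 28.6 and 29.8 FPKM, with no overlap and the LPS+PD libraries lowest. CDK4 and CDK6, both partners of D-type cyclins, thus differed in direction for LPS+PD against LPS, with log2 fold changes of 0.27 (adjusted p = 0.000868) and -0.17 (adjusted p = 0.0129). CDK2 fell by 0.25 with LPS (adjusted p = 0.000153).

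**Figure D3:**
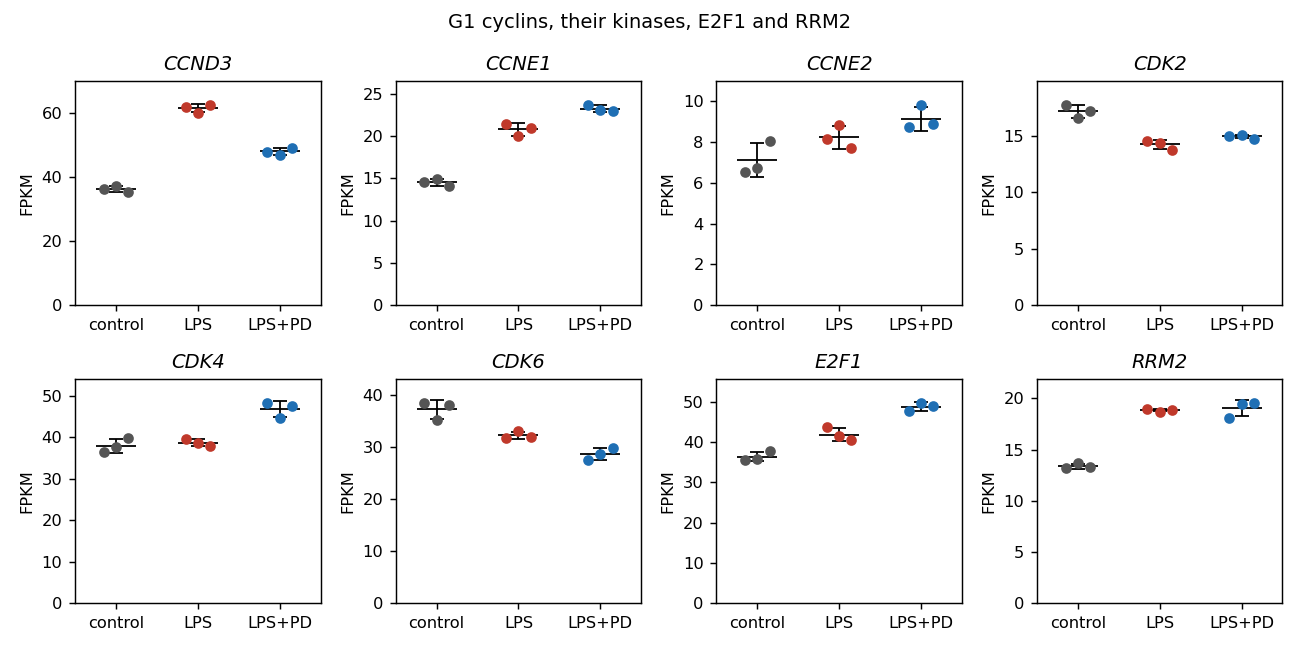
FPKM of 8 G1/S genes in each library (points), with the mean and SD of each group (black, n = 3). CCND3 is highest with LPS, CCNE1, E2F1 and CDK4 are highest with LPS+PD, CDK6 is lowest with LPS+PD, and RRM2 lies above control in both treated groups.

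The CDK inhibitors held the largest change of all members. CDKN1A, which encodes p21, an inhibitor of cyclin E-CDK2 (ENSG00000124762, GRCh38 chromosome 6, 36676460 to 36687339, plus strand), was at 13.4, 14.3 and 13.4 FPKM in control. It reached 84.1, 97.9 and 104.5 FPKM with LPS and 34.5, 37.6 and 38.7 FPKM with LPS+PD. The 3 groups were far apart, with LPS+PD between the other two. The log2 fold change was 2.71 (SE 0.08, adjusted p = 1.66e-09) for LPS against control, -1.34 (adjusted p = 1.96e-06) for LPS+PD against LPS and 1.36 (adjusted p = 4.03e-07) for LPS+PD against control.

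CDKN2C, which encodes p18, an inhibitor of CDK4 and CDK6 (ENSG00000123080, chromosome 1, 50960745 to 50974633, plus strand), went the opposite way. It was at 119, 123 and 114 FPKM in control, 63.3, 66.2 and 69.6 FPKM with LPS and 88.1, 91.7 and 89.7 FPKM with LPS+PD. Again the groups did not overlap, and LPS was lowest. The log2 fold change of CDKN2C was -0.83 with LPS (adjusted p = 6.74e-08), 0.43 for LPS+PD against LPS (adjusted p = 3.45e-05) and -0.40 for LPS+PD against control (adjusted p = 2.17e-05). On the FPKM scale CDKN2C was above CDKN1A in every control and LPS+PD library, and CDKN1A was above CDKN2C in every LPS library.

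CDKN2D, which encodes p19, of the same family as p18, was at 5.74, 6.04 and 5.67 FPKM in control, 7.68, 6.16 and 6.40 FPKM with LPS and 5.29, 5.25 and 6.31 FPKM with LPS+PD. Its 3 comparisons were not called (adjusted p = 0.0627 to 0.665), although all LPS libraries lay above control. With median-of-ratios scaling CDKN2D was higher with LPS (adjusted p = 0.0172) and lower for LPS+PD against LPS (adjusted p = 0.0235). The latter was also called with a filter at FPKM 5 (adjusted p = 0.0401) and without replicate 5 or 9 (0.0469 and 0.0238). CDKN1B, which encodes p27, was at 16.4, 17.1 and 14.6 FPKM, then 15.6, 15.7 and 14.1 FPKM, then 13.8, 15.1 and 14.8 FPKM, and all groups overlapped. For LPS against control the log2 fold change of CDKN1B was -0.08, with a 95% interval of -0.22 to 0.06, so that a change of the size of that in CDKN1A or CDKN2C lay outside the interval.

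The pocket proteins also parted. RB1, the retinoblastoma protein, was at 13.7, 12.3 and 13.1 FPKM in control, 22.02, 22.5 and 21.2 FPKM with LPS and 17.04, 16.9 and 18.0 FPKM with LPS+PD. LPS was highest and no groups overlapped. RB1 rose by a log2 fold change of 0.71 with LPS (adjusted p = 6.73e-07) and fell by 0.32 for LPS+PD against LPS (adjusted p = 0.000544). RBL1, which encodes p107 and is the inhibitor gene with E2F letters in its window, was at 12.9, 13.3 and 14.1 FPKM, then 11.2, 11.3 and 11.1 FPKM, then 12.2, 12.4 and 12.7 FPKM. It fell by 0.24 with LPS (adjusted p = 0.000369). Its rise for LPS+PD against LPS (0.14, adjusted p = 0.0192) lost its call without replicate 6, 8 or 9, and after median-of-ratios scaling its adjusted p was 0.198.

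**Figure D4:**
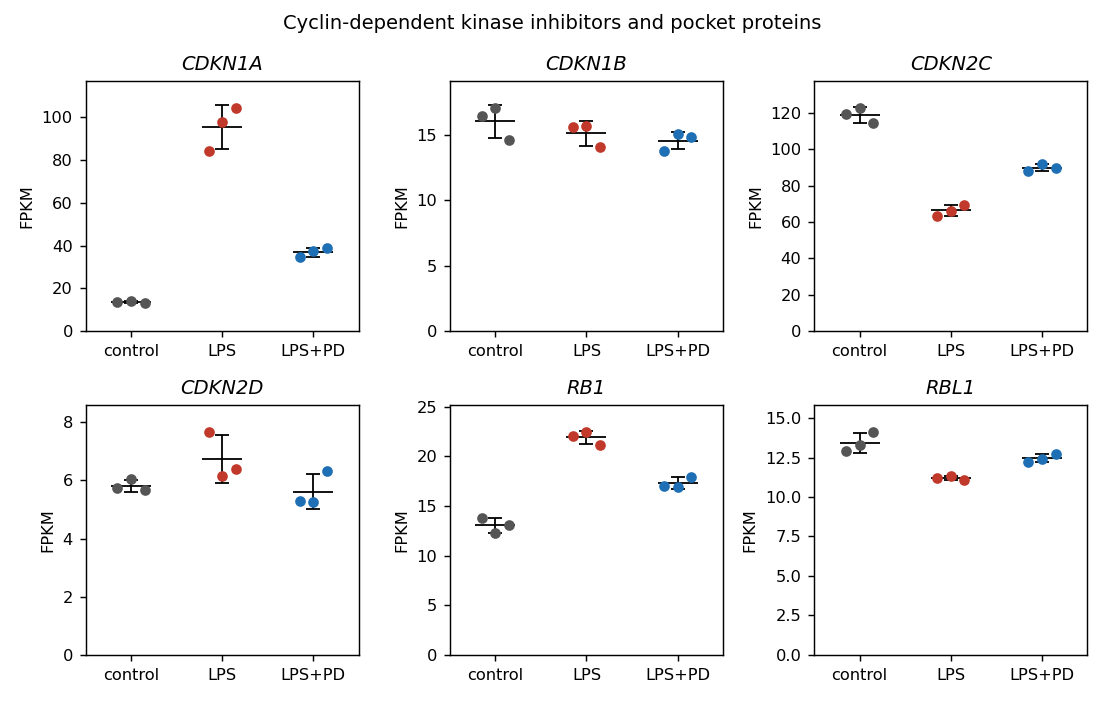
FPKM of the 4 CDK inhibitor genes and 2 pocket protein genes in each library (points), with the mean and SD of each group (black, n = 3). CDKN1A and RB1 are highest with LPS, CDKN2C and RBL1 are lowest with LPS, and CDKN1B overlaps in all groups.

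The mitotic cyclins, kinases and regulators fell with LPS in 11 of 13 genes, where 39.7% of all genes fell. TTK, a kinase of the spindle checkpoint, was at 16.7, 17.03 and 18.1 FPKM in control, 10.49, 11.7 and 10.46 FPKM with LPS and 12.7, 11.3 and 11.4 FPKM with LPS+PD. Both treated groups lay below control and overlapped each other. TTK fell by a log2 fold change of 0.62 with LPS (adjusted p = 9.33e-06), and LPS+PD against control gave -0.51 (adjusted p = 5.73e-05).

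CCNB2, cyclin B2, was at 28.1, 29.2 and 27.8 FPKM in control, 19.6, 18.1 and 17.7 FPKM with LPS and 20.4, 20.9 and 19.4 FPKM with LPS+PD. It too stayed low with PD. The log2 fold change was -0.60 with LPS (adjusted p = 2.11e-06) and -0.47 for LPS+PD against control (adjusted p = 1.90e-05), and the step between LPS and LPS+PD of 0.13 was not called (adjusted p = 0.0557, and 0.0148 without replicate 4). CCNB1, cyclin B1, was at 73.0 to 75.3 FPKM in control, 59.5 to 60.8 FPKM with LPS and 59.6 to 62.3 FPKM with LPS+PD, with a difference between the last groups of 0.01 (95% interval -0.05 to 0.07).

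BUB1, a spindle checkpoint kinase, was at 25.8, 24.9 and 28.1 FPKM in control, 18.0, 18.6 and 17.8 FPKM with LPS and 20.7, 20.5 and 20.2 FPKM with LPS+PD. Its groups did not overlap, and LPS+PD lay nearer to LPS than to control. BUB1 fell by 0.51 with LPS (adjusted p = 4.41e-06). The rise of 0.17 for LPS+PD against LPS (adjusted p = 0.0147) lost its call without replicate 6 (adjusted p = 0.0501), and median-of-ratios scaling gave 0.09 (adjusted p = 0.112).

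BUB1B, a checkpoint protein that holds back CDC20, was at 21.8, 19.8 and 20.6 FPKM in control, 16.9, 16.004 and 15.4 FPKM with LPS and 19.4, 20.3 and 19.0 FPKM with LPS+PD. Here the LPS+PD libraries reached into the control range. Its log2 fold changes were -0.35 (adjusted p = 0.000137) and 0.27 (adjusted p = 0.00212). CDC20 went from 311 to 336 FPKM in control to 248.8 to 271 FPKM with LPS and 298 to 318 FPKM with LPS+PD, and PLK1, a mitotic kinase, from 24.2 to 26.2 FPKM to 19.1 to 20.8 FPKM and 23.0 to 24.3 FPKM. FOXM1, a transcription factor of mitotic genes, fell by 0.20 with LPS and rose by 0.18 for LPS+PD against LPS (adjusted p = 0.00858; 0.0564 with median-of-ratios scaling).

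AURKA, a spindle pole kinase, and BIRC5, a subunit of the chromosomal passenger complex, fell by 0.23 and 0.32 with LPS and remained below control with LPS+PD (-0.14 and -0.20). Their rises for LPS+PD against LPS (0.10 and 0.12) lost their calls under several settings, median-of-ratios scaling among them. AURKB, the kinase of that complex, was at 10.2, 13.6 and 10.4 FPKM in control, 10.3, 9.82 and 9.60 FPKM with LPS and 12.8, 11.8 and 11.4 FPKM with LPS+PD. Control replicate 2 was the highest library, and no comparison was called. LPS+PD against LPS in AURKB (0.25, adjusted p = 0.0626) was called with a filter at FPKM 5 (adjusted p = 0.0353) and by voom on recovered fragments (adjusted p = 0.0188). Without that library LPS+PD was above LPS (adjusted p = 0.00423) and above control (0.20, adjusted p = 0.0146).

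With LPS, CDK1 and CCNA2 had the smallest log2 fold changes of the 13 genes in this role. CDK1, the kinase that drives entry into mitosis, was at 35.8 to 37.9 FPKM in control, 34.3 to 37.6 FPKM with LPS and 36.9 to 37.5 FPKM with LPS+PD, and all groups overlapped. The 95% interval of its log2 fold change with LPS ran from -0.10 to 0.08. CCNA2, cyclin A2, fell by 0.11 with LPS (adjusted p = 0.0145), a call that was lost with median-of-ratios scaling (-0.01, adjusted p = 0.836).

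Among genes for chromosomes, centromeres and the spindle, TOP2A, the topoisomerase that untangles sister DNA, fell most with LPS. It was at 99.0, 89.0 and 96.2 FPKM in control, 67.3, 66.1 and 62.9 FPKM with LPS and 76.1, 74.9 and 73.8 FPKM with LPS+PD. The groups did not overlap, and LPS+PD lay nearer to LPS. The log2 fold changes were -0.53 (adjusted p = 2.81e-06) for LPS against control, 0.19 (adjusted p = 0.0056) for LPS+PD against LPS and -0.33 (adjusted p = 0.000113) for LPS+PD against control.

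NUSAP1, a microtubule-binding spindle protein, was at 65.7, 63.8 and 68.2 FPKM in control, 50.03, 48.6 and 47.8 FPKM with LPS and 63.1, 58.2 and 57.3 FPKM with LPS+PD. The LPS+PD libraries lay nearer to control than to LPS on average, but all were below control. The log2 fold change of NUSAP1 was -0.43 with LPS (adjusted p = 1.25e-05) and 0.28 for LPS+PD against LPS (adjusted p = 0.000681). For LPS+PD against control it was -0.14 (adjusted p = 0.0144), a call lost without replicate 3, 8 or 9 (adjusted p = 0.0529 to 0.055). KIF11, a motor that pushes spindle poles apart, was at 23.1, 23.8 and 25.6 FPKM, then 20.3, 18.9 and 18.0 FPKM, then 21.6, 22.7 and 22.2 FPKM, so that LPS was lowest (-0.33, adjusted p = 0.00033). The rise of KIF11 for LPS+PD against LPS (0.21, adjusted p = 0.0112) had an adjusted p of 0.0519 with median-of-ratios scaling.

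The kinetochore genes CENPF and CENPE stayed low with PD. CENPF was at 31.4, 27.8 and 30.2 FPKM in control, 23.0, 23.8 and 22.01 FPKM with LPS and 22.6, 23.1 and 22.2 FPKM with LPS+PD. The treated groups overlapped, with a difference of -0.02 (95% interval -0.12 to 0.09), and both lay below control. CENPE was at 9.78 to 10.9 FPKM in control, 7.65 to 8.62 FPKM with LPS and 7.13 to 7.23 FPKM with LPS+PD, so that the LPS+PD libraries were lowest. Its step from LPS to LPS+PD of -0.14 was not called (adjusted p = 0.0598). It was called lower with median-of-ratios scaling (-0.21, adjusted p = 0.012), by voom (0.0211), with a filter at FPKM 5 (0.0462) and without replicate 1 or 4. MKI67, a marker of cycling cells, was at 36.4 to 39.9 FPKM in control, 39.8 to 40.6 FPKM with LPS and 43.4 to 44.1 FPKM with LPS+PD. Against control MKI67 was higher with LPS+PD (0.18, adjusted p = 0.0025), and with LPS it was called higher only under median-of-ratios scaling (0.16, adjusted p = 0.00236). Its rise for LPS+PD against LPS was 0.12 (adjusted p = 0.0272). That call was lost with median-of-ratios scaling (adjusted p = 0.341), without a filter on low values, and without any 1 of replicates 4 to 9.

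**Figure D5:**
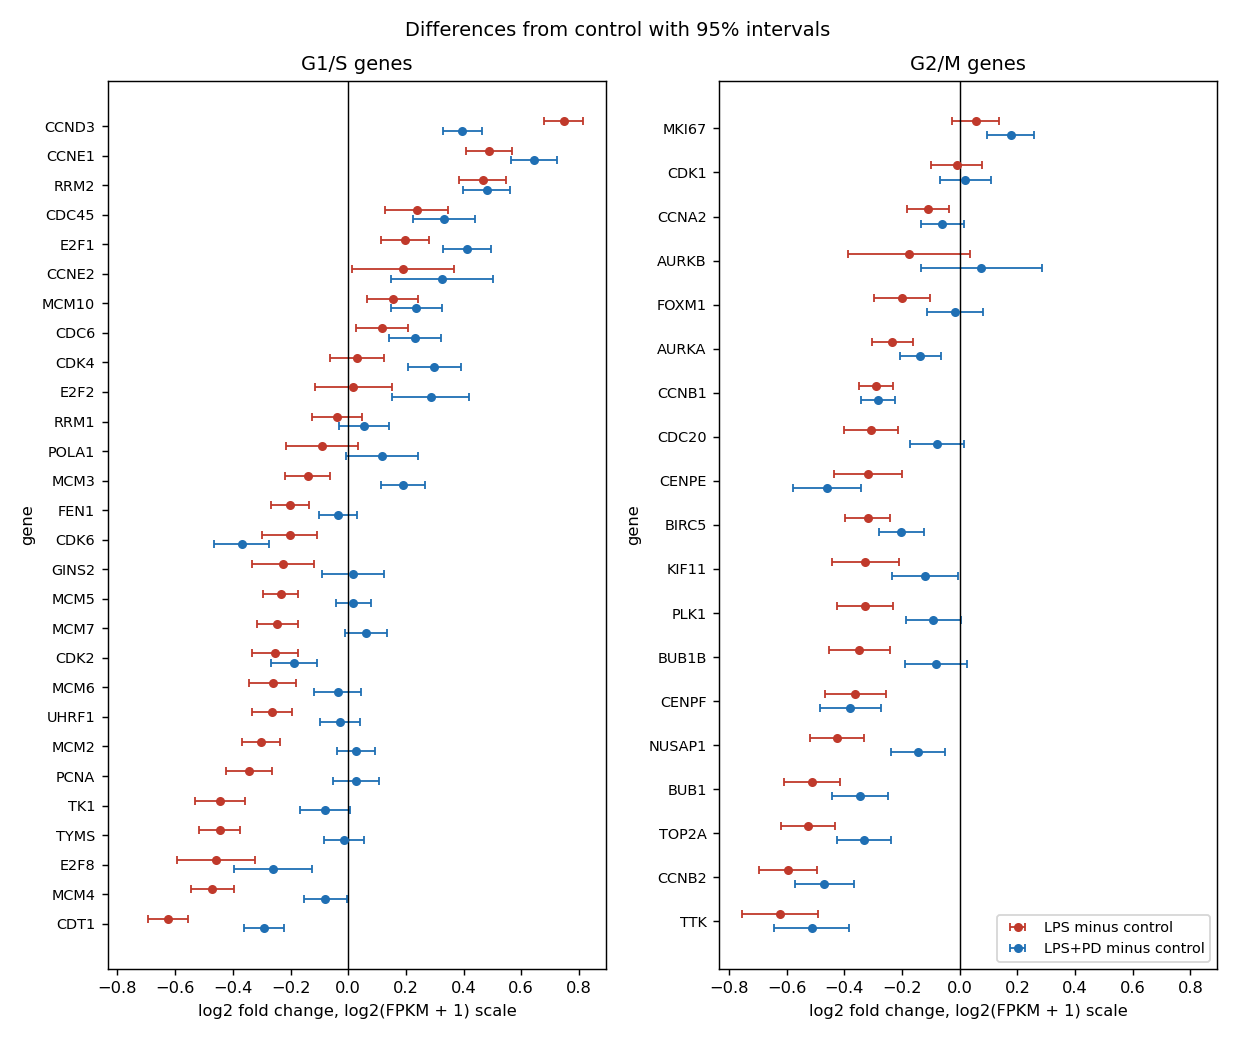
Log2 fold changes on the log2(FPKM + 1) scale with 95% intervals for LPS minus control (red) and LPS+PD minus control (blue), for 28 G1/S genes (left) and 19 G2/M genes (right). The blue interval includes 0 for MCM2, TYMS and PCNA, lies above 0 for MCM3, MCM10, CDC6, CDC45 and RRM2, and lies below 0 for MCM4, CDT1, CCNB1, CENPF, TTK and CCNB2.

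Further genes of the pathway were counted in 4 lists that hold none of the members, with 137 of 138 genes in the table. The shares of all genes to set beside their counts are 39.7% lower and 26.4% higher with LPS, 13.0% and 23.8% for LPS+PD against LPS, and 28.7% and 26.0% for LPS+PD against control. Of 46 other G1/S and replication genes 27 fell and 8 rose with LPS (median log2 fold change -0.18), and for LPS+PD against LPS 31 rose and 1 fell (0.19). Against control LPS+PD had 16 higher and 8 lower (0.05). The primase subunit PRIM1 was at 22.8, 13.8 and 19.4 FPKM in control, LPS and LPS+PD, DUT, which keeps uracil out of DNA, at 60.9, 38.3 and 48.1 FPKM and the DNA ligase LIG1 at 15.1, 9.99 and 12.8 FPKM.

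Of 51 tested among the other G2/M and mitosis genes 42 fell and 5 rose with LPS (median -0.31), against 39.7% lower and 26.4% higher over all genes. For LPS+PD against LPS 24 rose and 1 fell (0.13), against 23.8% and 13.0%. Against control LPS+PD had 34 lower and 6 higher (-0.20), against 28.7% and 26.0%. The centromeric histone CENPA was at 17.8, 10.3 and 12.2 FPKM in the same order, the kinesin KIF20A at 27.0, 15.9 and 18.9 FPKM and the centrosomal kinase NEK2 at 13.8, 7.92 and 9.94 FPKM. In both lists the medians lay close to those of the members of the same class, and all of these genes share the 9 libraries. Members and lists were chosen with earlier results known, so this closeness is not separate support.

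Of 15 tested among other inhibitors, pocket proteins and G1 cyclins, 7 rose and 5 fell with LPS; the lower share of 33.3% was near the 39.7% of all genes, and 26.4% of all genes rose. BTG2, an antiproliferative gene, went from 9.01 ± 1.32 to 398 ± 30.3 FPKM with LPS and to 143 ± 8.08 FPKM with LPS+PD (SD, n = 3). Cyclin D1, CCND1, went from 1.66 to 13.4 and 5.28 FPKM, and CCNG2, an atypical cyclin linked to cell cycle exit, from 5.62 to 1.69 and 1.89 FPKM. Between LPS and LPS+PD 5 of the 15 rose and 4 fell, where 23.8% of all genes rose and 13.0% fell.

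Among p53 target genes, the class to which CDKN1A belongs, 9 of 18 tested rose and 7 fell with LPS, with a median log2 fold change of 0.14. Over all genes 26.4% rose and 39.7% fell, so the share that fell, 38.9%, was near that background. The death receptor TNFRSF10B went from 6.01 to 16.3 FPKM and the kinase PLK3 from 1.94 to 6.79 FPKM, whereas the mitochondrial reductase FDXR went from 3.51 to 0.769 FPKM. With LPS+PD these genes were at 12.2, 3.74 and 1.38 FPKM. Between LPS and LPS+PD 7 of 18 rose and 5 fell, where 23.8% of all genes rose and 13.0% fell.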

How the data were processed

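The authors deposited 1 table of FPKM values for 34643 genes, with 1 column per library. Per the submitters' processing notes, the tools were StringTie, HISAT2, FastQC and bcl2fastq (no versions listed) and the genome build was GRCh38. How strand and multiply mapped reads were handled is not given in the sources used here. Coordinates are those of the table. Fragments were recovered from FPKM and total exon length (GENCODE v29): 97.6 to 97.7% of values came out whole within 0.05.

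Groups were taken from the sample titles. Differences were tested with limma (version 3.58.1, run under R 4.3.3) after a log2(FPKM + 1) transform, with 3 group means, all 9 libraries and an intensity trend, over the 13692 genes with at least 1 FPKM in at least 3 libraries, a filter that 53 of 54 members passed. P-values were adjusted over all genes tested (Benjamini-Hochberg), and a gene was called below 0.05. Fold changes on this scale understate changes of low genes. The test was run on simulated data in which most genes were unchanged, so that check does not cover the scaling between libraries. Values in every library are given for inhibitors, pocket proteins, G1 cyclins and their kinases, and otherwise for the 3 largest changes with LPS and the 2 largest with LPS+PD per role. From each further list the 3 largest called changes with LPS are named. Other members named were within the 54. Members and lists were chosen with earlier results of these data known. Alternatives are given in the closing section.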

Additional observations from a re-analysis of the deposited data

How the results depend on the processing

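No paired analysis was possible because the groups share no replicate number. Median-of-ratios scaling moved the most results: with LPS the median log2 fold change was -0.101 for G1/S genes and -0.2245 for G2/M genes, with 2 G2/M genes higher. Under it LPS+PD against LPS gave 2058 genes higher over the whole table, medians of 0.1454 (G1/S) and 0.0527 (G2/M), and 5 G2/M genes higher with 1 lower, and LPS+PD against control gave a G1/S median of 0.0665. A filter at FPKM 5 left 3295 genes lower with LPS and 2445 lower for LPS+PD against control, from fewer genes tested. That filter and voom on recovered fragments each gave 1 G2/M gene lower for LPS+PD against LPS, and no filter gave a G1/S median of 0.0261 for LPS+PD against control. The cause was not tested for the other settings.

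Leaving out 1 replicate at a time, LPS+PD against LPS gave G1/S medians of 0.2107 to 0.2521, 7 to 12 G2/M genes higher and 0 to 1 lower. LPS+PD against control gave G1/S medians of 0.0308 to 0.0588 and 1 to 2 G2/M genes higher.

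Signs turned only in genes not called as deposited. With median-of-ratios scaling these were, for LPS, POLA1 (0.0022), RRM1 (0.0622), CDKN1B (0.017) and CDK1 (0.0909, called at an adjusted p of 0.0399 by limma). For LPS+PD against LPS they were RRM2 (-0.0591), CDK2 (-0.0081), CCNA2 (-0.0251), CCNB1 (-0.0682) and CDK1 (-0.0463), and for LPS+PD against control TYMS (0.0111) and FOXM1 (0.0074). With a replicate left out the ranges were, for LPS, -0.0699 to 0.0034 (RRM1), -0.0229 to 0.0657 (E2F2) and -0.0314 to 0.0336 (CDK1). For LPS+PD against LPS they were -0.0049 to 0.0482 (RRM2), -0.012 to 0.0192 (CCNB1), -0.0145 to 0.0505 (CDK1) and -0.0446 to 0.008 (CENPF). For LPS+PD against control they were -0.0341 to 0.0447 (GINS2) and -0.0491 to 0.0137 (FOXM1).

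There were 3 libraries per group and no PD-only group. Precision differed between genes, and log2 fold changes of 0.25 (AURKB), -0.23 (CDKN2D) and 0.14 (CCNE2) for LPS+PD against LPS were not called. CCND2 could not be tested.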
